A study of Mus musculus with 12 samples.

Results

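Palatal shelves are the paired outgrowths of the maxillary processes that lift and fuse to form the secondary palate. Shelves from 2 kinds of wild type mouse embryos at gestational day 12 were compared by RNA sequencing: embryos given the vehicle of 5-aza-2'-deoxycytidine (AzadC, a cytidine analogue that traps DNA methyltransferases on DNA) and embryos of the untreated control group. The 3 vehicle and 3 control libraries were taken by their labelled group and make up 6 of the 12 libraries of the series. The other 6 are 3 libraries of wild type embryos given AzadC and 3 of untreated embryos with a conditional knockout of DNMT1, the maintenance DNA methyltransferase. Each library pools the shelves of 2 embryos of one genotype, so that a group holds 6 embryos, while the series' own design text mentions 3 pooled animals. Per the labels' protocols, at least 3 litters stood behind a genotype and no litter gave more than 3 of its embryos. The composition, dose, route and time of the vehicle, the strain background and parents of each group, and the Cre driver of the knockout were not given in the sources used here. Within this comparison the vehicle, the exact stage, the background and the litters cannot be told apart.

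The mesenchyme of the shelf derives largely from the neural crest and is covered by an epithelium. Later in gestation part of it condenses into palatal bone, a programme that runs through the transcription factors Runx2 and Sp7 and ends in mineralising matrix proteins such as bone sialoprotein. Several other clocks run in the same embryo. Primitive red cells from the yolk sac, which carry embryonic globins, give way to fetal liver red cells with adult globins. The RNA-binding proteins Lin28a and Lin28b, which block maturation of let-7 microRNAs, decline together with let-7 targets such as Hmga2 and the Igf2bp genes.

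The 6 libraries held 15997977 to 33113790 expected counts, and levels are given below as CPM, counts divided by the scaled library total. Shelf mesenchyme genes were present in all 6, with Pax9, a transcription factor needed for palate growth, at 121 to 193 CPM and Twist1, a neural crest mesenchyme factor, at 150 to 204. All 6 pools contained both Y-linked transcripts and Xist, with summed Y-linked levels of 68.3 to 199.7 CPM in control and 78.5 to 127.6 in vehicle. Dnmt1 stood at 180 to 201 CPM in the knockout libraries, below the 258 to 286 of control. In these bulk samples fewer cells of a type and less RNA per cell cannot be told apart. Nothing in the labels says that replicate pools differ in more than their embryos, so that p-values measure the spread between pools.

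Of 17335 genes tested, 610 (3.52%) passed edgeR's quasi-likelihood test at a Benjamini-Hochberg adjusted p below 0.05. Vehicle shelves were higher for 253 of them (1.46% of tested genes) and lower for 357 (2.06%). These shares are the base for the counts of list members below. The lower calls were the larger ones, with a median log2 change of -0.94 against 0.39 for the higher calls, while the median over all tested genes was -0.0026. A log2 change of at least 1 in size was reached by 165 of the lower and 40 of the higher calls. The vehicle and control libraries did not overlap for 252 of the 253 higher calls and for 352 of the 357 lower ones, against 11.2% and 11.5% of all tested genes. On the first principal component of the 500 most variable genes, which held 54.5% of the variance, the control libraries lay at -20.6 to -10.04 and the vehicle libraries at 11.5 to 16.2. With a gene length trend as an offset the split was 388 higher and 341 lower. Single libraries weighed on the counts, since a fit without vehicle 1 called 46 genes higher and 90 lower. The fit without vehicle 3 called 52 and 85, without control 2 97 and 185, without control 3 123 and 215, without vehicle 2 188 and 250, and without control 1 205 and 361. Of the 610 genes 101, 33 higher and 68 lower, passed the test in each of these 6 fits, and they are called stable genes below. Each of the other calls was lost without at least 1 library; for lists the number of calls in each fit is given, and for most genes named the adjusted p of the fits that lost them.

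**Figure D1:**
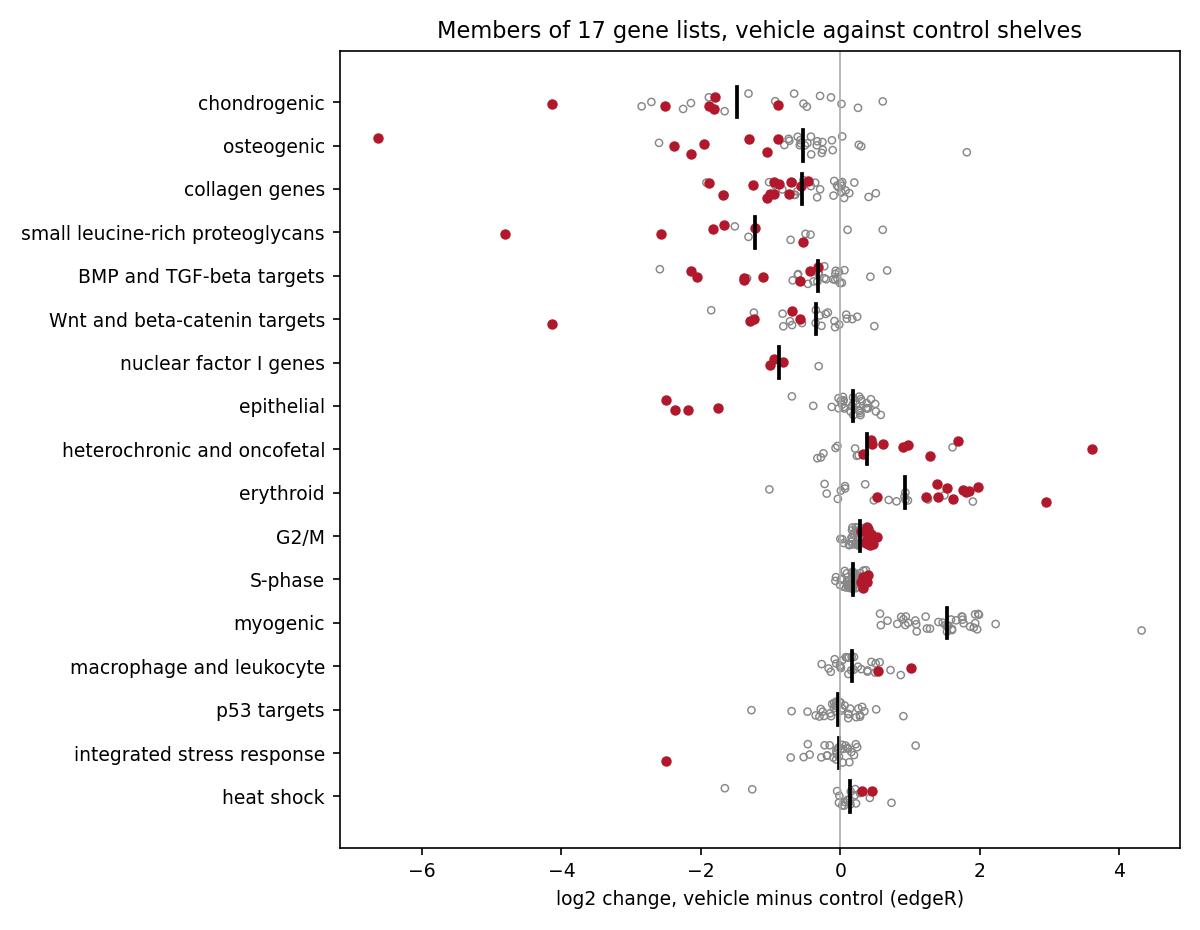
Log2 change between vehicle and control (x axis, edgeR estimate) for each tested member of 17 gene lists (y axis), with called genes as filled red points, the other members as open points and the list median as a black bar. Most chondrogenic, osteogenic, collagen and small leucine-rich proteoglycan genes lie to the left of zero. Most heterochronic, erythroid and cell division genes lie to the right. The myogenic genes all lie to the right, spread out and with no call.

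Genes of bone formation were lower in vehicle shelves. Of 30 tested members of the osteogenic list, 7 fell and none rose, with a list median of -0.54. Ibsp, which encodes bone sialoprotein, had 5.22, 14.9 and 2.91 CPM in the control libraries and 0.186, 0 and 0.0807 in the vehicle libraries. Its log2 change was -6.63 ± 0.96 (SE, adjusted p = 0.00395), and it moved to -5.69 without control 2, to -7.53 without vehicle 1 and to -5.89 without vehicle 2. Ibsp is on the plus strand of chromosome 5 (chr5:104299171-104311469, GRCm38). Alpl, the tissue-nonspecific alkaline phosphatase that frees phosphate for mineral, had 14.6, 37.0 and 28.5 CPM in control against 4.15, 5.98 and 5.08 in vehicle. That is a log2 change of -2.38 ± 0.31 (adjusted p = 0.0021). Runx2, the factor that commits mesenchyme to the osteoblast line, fell from 84.1, 114 and 102 CPM to 45.8, 55.2 and 59.8 (log2 change -0.90 ± 0.14, adjusted p = 0.00577). The groups did not overlap for any of these 3, and all 3 were stable genes, as was Postn, the matrix protein periostin (log2 change -1.96 ± 0.27, adjusted p = 0.00362).

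Sp7, which acts after Runx2, had 14.8, 19 and 9.07 CPM in control and 4.76, 5.69 and 6.86 in vehicle (log2 change -1.3 ± 0.26, adjusted p = 0.0178). The Sp7 call was lost without control 2 (adjusted p = 0.0594), vehicle 1 (0.0856) or vehicle 3 (0.0506). Col1a1, the chain of type I collagen that fills bone matrix, stood at 599, 704 and 535 CPM against 184, 389 and 313, a log2 change of -1.05 ± 0.20 (adjusted p = 0.016). It too missed the threshold without control 2 (0.0537) or vehicle 3 (0.0568). Dlx5, another osteoblast factor, was not called (log2 change -0.47 ± 0.49, adjusted p = 0.666). Leaving out 1 library at a time gave 5 to 8 lower members of the osteogenic list.

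Signalling genes of the BMP family were lower too. Bmp3 encodes a BMP family member that dampens the signalling of the bone-inducing BMPs. Its control libraries held 16.5, 22.4 and 31.0 CPM and its vehicle libraries 4.02, 5.14 and 5.20 (log2 change -2.27 ± 0.25, adjusted p = 0.000769), and it was stable. Of 32 tested members of the BMP and TGF-beta list 8 fell and none rose: Msx2, Ltbp2, Grem1, Id4, Inhba, Bmp7, Tgfbr2 and Tgfb3. Msx2, a BMP-induced homeobox gene of the craniofacial mesenchyme, went from 9.66, 22.9 and 10.8 CPM to 2.17, 3.60 and 3.95 (log2 change -2.14 ± 0.39, adjusted p = 0.0129, 0.0674 without vehicle 1). Grem1, a secreted BMP antagonist, fell with it (log2 change -1.38 ± 0.24, adjusted p = 0.0114, stable), and so did Tgfb3, the ligand that drives fusion of the palatal seam (log2 change -0.32 ± 0.08, adjusted p = 0.0369). The Tgfb3 call was lost without any single library but vehicle 2 (adjusted p from 0.0641 to 0.137). Leaving out vehicle 1 or vehicle 3 also ended the calls of Ltbp2, Id4, Inhba, Bmp7 and Tgfbr2, whose adjusted p reached 0.0938, 0.143, 0.0888, 0.0859 and 0.0872. The list's lower calls numbered 1 without vehicle 1, 2 without vehicle 3 and 4 or 5 in the other leave-outs.

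Wnt pathway genes were lower in part. Of 26 tested members 5 fell and none rose. Wnt16, a ligand known from bone and epithelium, had 2.41, 5.02 and 4.74 CPM in control and 0.309, 0.225 and 0.161 in vehicle (log2 change -4.13 ± 0.58, adjusted p = 0.00362). Dkk3, a secreted relative of the Wnt inhibitors, had 33.1, 42.8 and 42.5 against 13.9, 18.2 and 17.6 CPM (log2 change -1.24 ± 0.17, adjusted p = 0.00362). Both were stable. Wnt11 lost its call without control 1, control 2, vehicle 1 or vehicle 3 (adjusted p from 0.0547 to 0.105), Lgr5 without control 2, control 3, vehicle 1 or vehicle 2 (0.0876 to 0.153), and Apcdd1 without any library but vehicle 2 (0.0568 to 0.124). The list had 2 to 4 lower calls in the 6 fits. The Hedgehog list had 1 lower call of 20, which is 5%, against 2.06% of all tested genes. It was Gas1, a co-receptor for Hedgehog ligands (log2 change -0.77 ± 0.17, adjusted p = 0.0284, and 0.116 without vehicle 1, 0.0885 without control 3, 0.0837 without vehicle 3 and 0.06 without vehicle 2). In the list of palatal and facial regulators 4 of 60 tested genes were called, 2 higher, Zeb2 among them, and 2 lower, Alx4 and Bmp7, with a median of -0.12. Zeb2 lost its call without any single library (0.0971 to 0.153) and Alx4 without control 3 or any vehicle library (0.0663 to 0.0921). That list had no call at all without control 3, vehicle 1 or vehicle 3. Osr2, a regulator of shelf growth, stood at 101, 94.7 and 142 CPM in control and 37.8, 104 and 68.4 in vehicle, which overlap (adjusted p = 0.294). Tbx22, a gene of palatal bone development, had 65.5 to 136 CPM in control and 35.8 to 55.9 in vehicle without passing the test (adjusted p = 0.0812).

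**Figure D2:**
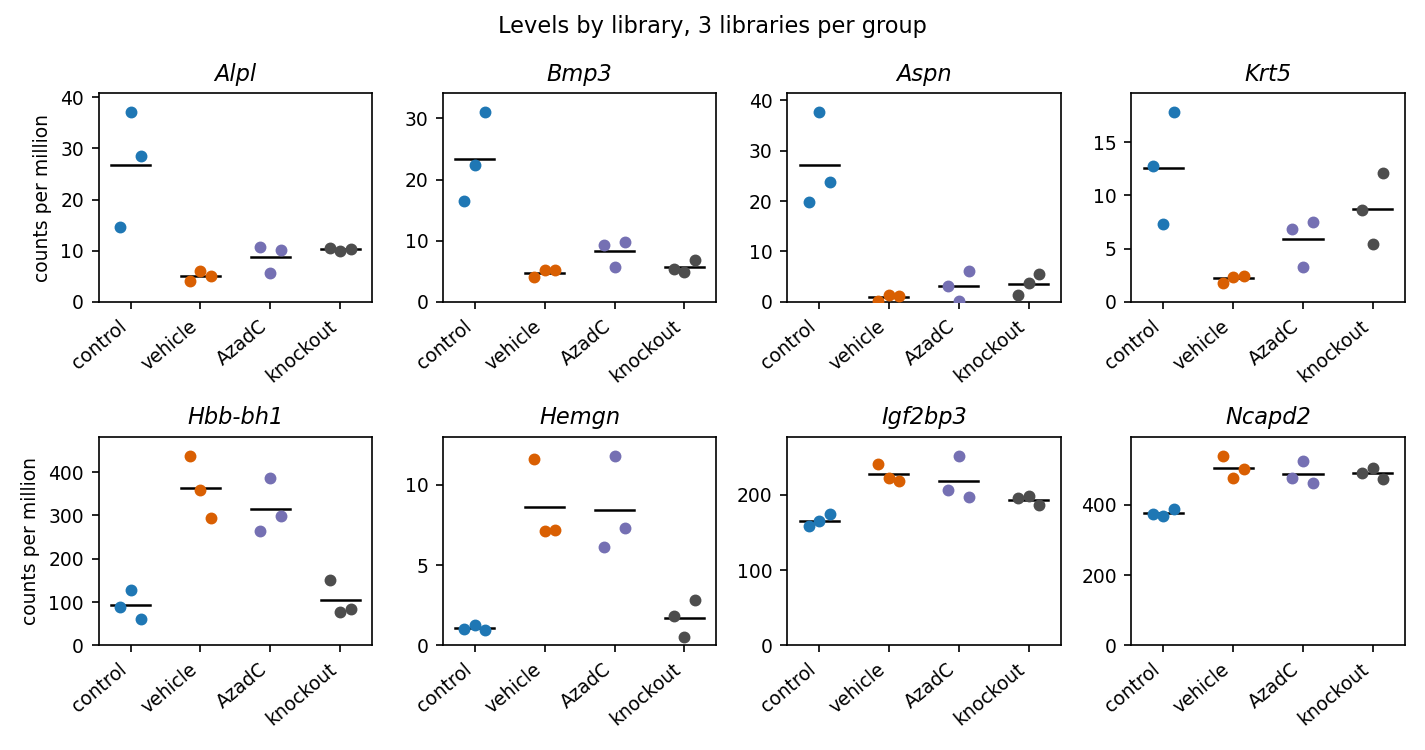
Scaled CPM (linear y axis from 0) of 8 genes in each of the 12 libraries, grouped as control, vehicle, AzadC and knockout, with a bar at each group's mean. In Alpl, Bmp3, Aspn and Krt5 all vehicle points lie under all control points, and in Hbb-bh1, Hemgn, Igf2bp3 and Ncapd2 they lie above them.

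Cartilage genes were also lower, with more spread. Of 22 tested chondrogenic genes 6 fell and none rose, the list median was -1.49 and 3 members had a positive log2 change. Matn4, a cartilage matrilin, had 64.9, 142 and 33.5 CPM in control and 10.5, 18.1 and 13 in vehicle (log2 change -2.52 ± 0.59, adjusted p = 0.0336). The other 5 were Scin, an actin-severing protein of cartilage and bone cells, Hapln1, the link protein, Papss2, which makes the sulphate donor for proteoglycans, Col11a2 and Fibin. Each lost its call without 3 to 5 of the libraries, vehicle 1 and vehicle 3 among them, with an adjusted p of up to 0.112 for Scin, 0.105 for Hapln1, 0.138 for Papss2, 0.117 for Col11a2 and 0.112 for Fibin. Sox9, the factor that commits cells to cartilage, was not called (99.6, 133 and 71.5 against 91.4, 89.1 and 97.0 CPM, log2 change -0.14 ± 0.17, adjusted p = 0.733), nor was Col2a1, its main collagen target (log2 change -0.29 ± 0.30, adjusted p = 0.665). Both turned positive without control 2, at 0.11 for Sox9 and 0.11 for Col2a1. Summed over the list, control 2 had the highest level of the 6 libraries at 3945 CPM, control 1 had 2548, control 3 1416, and the vehicle libraries 1857 to 2031. The lower calls numbered 1 without control 2, 14 without control 3, 7 without control 1, 1 without vehicle 2, and 0 without vehicle 1 or vehicle 3. Matn4 alone moved from -2.52 to -1.82 without control 2, with adjusted p of 0.125 there, 0.135 without vehicle 1, 0.0663 without vehicle 2 and 0.123 without vehicle 3.

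Loose connective tissue matrix moved in the same direction. The families in this paragraph were grouped after their values were seen. Of 40 tested collagen genes 12 fell and none rose, with a median of -0.55, and of 13 small leucine-rich proteoglycans, which coat collagen fibrils, 6 fell and none rose, with a median of -1.23. Col8a1, a short-chain network collagen, had 137, 119 and 156 CPM in control and 34.8, 49.1 and 43.5 in vehicle (log2 change -1.69 ± 0.16, adjusted p = 0.000147). Aspn, asporin, had 19.8, 37.6 and 23.8 against 0.186, 1.35 and 1.13 CPM, a log2 change of -4.81 ± 0.78 (adjusted p = 0.00792). Ogn, osteoglycin, fell from 100, 106 and 64.9 CPM to 29.6, 22.7 and 25.0 (log2 change -1.82 ± 0.26, adjusted p = 0.00401). Aspn, Ogn and Omd are neighbours on chromosome 13. Omd lost its call without any single library (0.065 to 0.147). Podn, Col5a2 and Col6a1 were stable genes as well, with log2 changes of -1.67 ± 0.29, -0.70 ± 0.11 and -0.95 ± 0.15. Col3a1, the most abundant of the called collagens at 1748 to 2161 CPM in control, changed by -0.47 ± 0.12 (adjusted p = 0.0452), and that call was lost without control 2 (0.14), control 3 (0.105), vehicle 1 (0.159) or vehicle 3 (0.117). Dcn, decorin, was not called (27.9, 5.48 and 5.99 CPM in control, 12.3, 4.92 and 11.2 in vehicle).

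Genes of the secretory pathway were also among the lower calls. Kdelr3, a receptor that returns escaped chaperones to the endoplasmic reticulum, had 24.8, 32.9 and 18.1 CPM in control and 13.7, 9.32 and 10.8 in vehicle (log2 change -1.18 ± 0.23, adjusted p = 0.0171). It missed the threshold without control 2 (0.058), vehicle 2 (0.0566) or vehicle 3 (0.0751). P4ha2, a prolyl hydroxylase that prepares collagen chains for folding, fell by 0.54 ± 0.09 on the log2 scale (adjusted p = 0.00832, stable). Among 20 tested unfolded protein response genes none was called by edgeR, 4 were lower at an unadjusted p below 0.05, and DESeq2 and limma-voom each called 1 lower. Of the 4 nuclear factor I genes, also grouped after their values were seen, 3 fell, with log2 changes of -0.95 ± 0.19 for Nfia, -0.82 ± 0.14 for Nfib and -1.01 ± 0.20 for Nfix; these DNA-binding factors rise with cell maturation in several tissues. Without vehicle 1 their adjusted p became 0.0844, 0.0589 and 0.0593, without vehicle 3 0.0709, 0.0527 and 0.0676, without control 2 0.0503 for Nfia and 0.0542 for Nfix, and without control 3 0.061 for Nfia.

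In the epithelium, 3 of 14 tested keratins, a family grouped after its values were seen, were lower while general epithelial genes were not called. Krt5, a keratin of basal cells, had 12.8, 7.28 and 17.8 CPM in control and 1.79, 2.35 and 2.46 in vehicle (log2 change -2.50 ± 0.39, adjusted p = 0.00626, stable). Krt17, a keratin of ectodermal appendages, had 6.92, 4.67 and 7.99 against 0.990, 1.64 and 1.09 CPM (log2 change -2.37 ± 0.44, adjusted p = 0.0146). Krt14, the partner of Krt5, and Dsc3, a desmosomal cadherin, completed the 4 lower calls among 38 tested epithelial genes, and none rose. The list median was 0.17, and 29 of the 38 had a positive log2 change. Without vehicle 1 the adjusted p was 0.0729 for Krt17 and 0.125 for Krt14, without vehicle 3 it was 0.0706, 0.116 and, for Dsc3, 0.0521, and without control 3 it was 0.0989 for Krt14. Epcam and Cdh1, which mark epithelial cells of any kind, and Trp63, the factor that sets up basal cells, had log2 changes of 0.04 ± 0.27, 0.15 ± 0.20 and 0.29 ± 0.26. Their control and vehicle libraries overlapped, as did the summed level of the list, 653.8 to 1054 CPM in control and 938.1 to 1008 in vehicle.

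Part of the genes that decline over gestation were higher in vehicle shelves. Of 18 tested heterochronic and oncofetal genes 9 rose and none fell, with a median of 0.38. A negative log2 change was seen in 5, of which 2 were lower at an unadjusted p below 0.05 (edgeR). With the muscle score in the fit 2 were called lower. The summed level of the list overlapped, at 9972 to 11486 CPM in control and 9382 to 10614 in vehicle. Igf2bp3, an RNA-binding protein of fetal tissues, had 158, 165 and 174 CPM in control and 240, 222 and 218 in vehicle (log2 change 0.45 ± 0.08, adjusted p = 0.0132, 0.0727 without vehicle 1). Lin28b had 7.81, 7.89 and 11 against 21, 15.4 and 13.3 CPM (log2 change 0.90 ± 0.22, adjusted p = 0.0389). Hmga2, a chromatin protein and let-7 target, rose from 519, 575 and 537 to 675, 669 and 688 CPM (log2 change 0.32 ± 0.08, adjusted p = 0.0385). Trim71, an RNA-binding let-7 target, had 4.14, 1.99 and 4.28 CPM in control and 8.11, 9.48 and 7.62 in vehicle. In each of these 4 the groups did not overlap. Lin28a, Hmga1, Igf2bp1, Sall4 and Arid3b were the other higher calls, of which Lin28a reached at most 1.03 CPM in a library. The higher calls of the list numbered 0 without vehicle 1, 1 without vehicle 3, 1 without control 2, and 3 to 5 in the other leave-outs. Lin28b lost its call without any single library but control 3 (adjusted p from 0.0568 to 0.165), Hmga2 without any of the 6 (0.055 to 0.125), and Trim71 without control 2 or any vehicle library (0.0696 to 0.0892).

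Red cell genes were higher in part in vehicle shelves, among them 2 of the 3 embryonic globins and none of the adult ones. Of 29 tested erythroid genes 11 rose and none fell, with a median of 0.93. The summed level of the list overlapped, at 2707, 5944 and 2343 CPM in control and 4331, 5930 and 4342 in vehicle. Summed embryonic globins overlapped too, at 1604, 3570 and 1337 against 3164, 3959 and 3032 CPM, and control 2 was the highest control library in both sums. Hbb-bh1, an embryonic beta-like globin, had 88.7, 128 and 60.1 CPM in control and 437, 358 and 294 in vehicle (log2 change 1.97 ± 0.28, adjusted p = 0.00382). Hba-x, the embryonic zeta globin, had 219, 429 and 178 against 726, 794 and 632 CPM (log2 change 1.38 ± 0.29, adjusted p = 0.0239). Hbb-y, the third embryonic globin, overlapped between the groups (log2 change 0.35 ± 0.29, adjusted p = 0.571), and none of the 4 tested adult globin genes was called by edgeR, DESeq2 or limma-voom, 1 of them being lower at an unadjusted p below 0.05 and called lower by edgeR without a filter on low counts. Hemgn, a nuclear protein of erythroid progenitors, rose from 1.04, 1.3 and 0.97 to 11.6, 7.13 and 7.18 CPM (log2 change 2.95 ± 0.46, adjusted p = 0.00577). Rhag and Rhd of the Rh complex, Sptb, a spectrin of the membrane skeleton, Gata1, the lineage factor, and Car2, a carbonic anhydrase, were among the other calls. Hbb-bh1, Hemgn, Rhd and Slc25a37, a mitochondrial iron importer, were stable; the list had 4 higher calls without vehicle 1, 16 without control 2 and 7 or 8 in the other leave-outs. The Hba-x call was lost without control 1 (0.0641), control 3 (0.071), vehicle 1 (0.0844), vehicle 2 (0.0593) or vehicle 3 (0.0586), the Rhag call without any but control 2 (0.0663 to 0.105), the Gata1 call without control 1, control 3, vehicle 1 or vehicle 3 (0.0542 to 0.0925), and the Sptb call without vehicle 1 (0.0514).

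The mix of globins was read as a share, which divides out the total globin level of a pool. Embryonic globins made up 66.4, 64.2 and 65.1% of all globin transcripts (by TPM, a length-corrected share of transcripts) in control and 82.4, 73.2 and 77.6% in vehicle. The groups did not overlap, and an exact two-sided permutation test of 3 against 3 cannot give a p below 0.1. The same share was 78.1, 75.7 and 77.2% in the AzadC libraries and 67.3, 69.1 and 66.8% in the knockout libraries. Vehicle and AzadC pools thus held the higher shares, and control and knockout pools the lower ones, with no overlap between the 2 sets. Adult globin genes include near-identical copies among which reads are shared, so that the share rests on their sum.

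**Figure D3:**
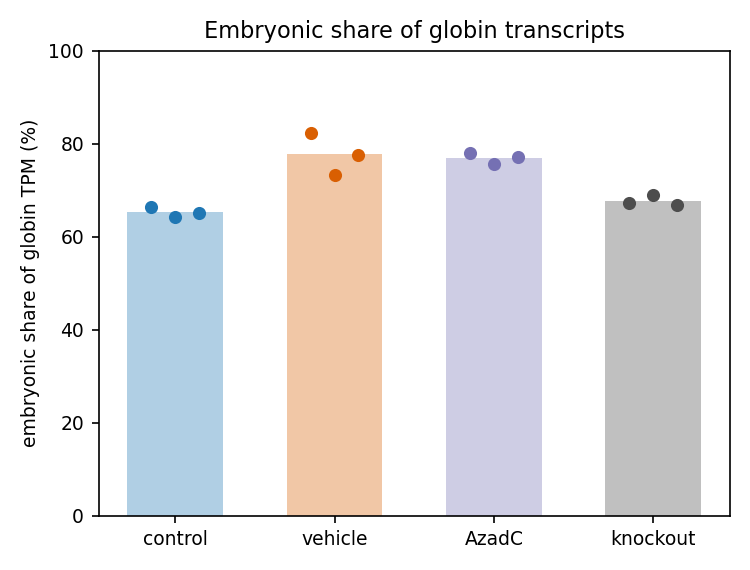
Percent of globin TPM that came from embryonic globins, 1 point per library and a bar from 0 to the mean of each group of 3. The vehicle points, 73.2 to 82.4%, lie above the control points, 64.2 to 66.4%, and the AzadC points lie among the vehicle ones.

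Cell division genes were higher in vehicle shelves by small and even steps. Of 51 tested G2/M genes 16 rose and none fell, with a median of 0.28 and a positive log2 change in 50, and of 49 S-phase genes 5 rose and none fell, with a median of 0.17. Ncapd2, a condensin subunit that compacts chromosomes, had 373, 368 and 388 CPM in control and 538, 476 and 501 in vehicle (log2 change 0.43 ± 0.06, adjusted p = 0.00577). Bub1b, a spindle checkpoint kinase, had 169, 166 and 170 against 243, 217 and 235 CPM (log2 change 0.46 ± 0.08, adjusted p = 0.00848). Both were stable. Mki67, the proliferation antigen Ki-67, rose from 506, 576 and 590 to 815, 718 and 727 CPM (log2 change 0.44 ± 0.09, adjusted p = 0.0212), a call lost without control 1 (0.053), vehicle 1 (0.103) or vehicle 3 (0.0586). None of the G2/M genes passed a test against a 1.2-fold change, and their higher calls numbered 2 without vehicle 1, 2 without vehicle 3, 5 without control 2, and 10 to 16 in the other leave-outs. S-phase calls numbered 0 without control 2, control 3, vehicle 1 or vehicle 3.

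Single genes of transcription and chromatin, named after their values were seen, were higher as well. Polr2a, the largest subunit of RNA polymerase II, had 354, 374 and 351 CPM in control and 490, 502 and 498 in vehicle (log2 change 0.46 ± 0.07, adjusted p = 0.00362). Arid1a, a subunit of the BAF chromatin remodelling complex, had 311, 311 and 324 against 401, 404 and 401 CPM (log2 change 0.35 ± 0.06, adjusted p = 0.00848). Chd7, a remodeller needed in the neural crest, rose from 59.3, 56.7 and 51.2 to 110, 102 and 93.9 CPM (log2 change 0.87 ± 0.15, adjusted p = 0.00973), and Parp1, which marks DNA breaks with ADP-ribose, by 0.37 ± 0.06 (adjusted p = 0.00626). All 4 were stable. In the BAF family, grouped after the values were seen, 4 of 24 tested genes rose and 1 fell: Smarca4, one of its alternative ATPases, rose by 0.34 ± 0.07 (adjusted p = 0.0259) and Smarca2, the other, fell by 0.45 ± 0.11 (adjusted p = 0.0346). Both calls were lost without any single library but control 1, at 0.055 to 0.0797 for Smarca4 and 0.0577 to 0.145 for Smarca2. The CHD remodellers had 2 higher calls of 9, Chd4 and Chd7, of which Chd4 missed the threshold without vehicle 1 (0.079) or vehicle 3 (0.0674).

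Dnmt1 was one of the stable higher genes. It had 286, 278 and 258 CPM in control and 452, 451 and 448 in vehicle (log2 change 0.72 ± 0.07, adjusted p = 0.000286). Of 25 tested genes of the DNA methylation machinery only Dnmt1 and Trim28, a co-repressor at imprinted loci and retroelements, were called; Dnmt3a, Dnmt3b, Uhrf1 and Tet1 were not, with log2 changes of 0.05 ± 0.06, 0.34 ± 0.12, 0.23 ± 0.08 and 0.11 ± 0.09. Among 47 tested germline genes that methylation silences in body cells, Meioc alone was called. The filter on low counts used all 12 libraries, and 37 of the 47 were lower in AzadC than in knockout libraries. Members with few or no counts in both vehicle and control could not be called, so the count says little about them. Meioc, a meiosis gene, had 0.865, 1.19 and 0.799 CPM in control and 18.7, 27.8 and 25.2 in vehicle (log2 change 4.64 ± 0.26, adjusted p = 7.58e-07). The AzadC libraries had 1.26, 1.33 and 1.8 CPM of Meioc and the knockout libraries 4.70, 7.53 and 5.21, so that the vehicle libraries stood above the other 9. Meioc lies at chr11:102663716-102682237 on the plus strand. Of 52 tested imprinted genes 2 rose and 3 fell: Magel2, of the Prader-Willi region, rose by 1.41 ± 0.26 (adjusted p = 0.0141) and Snrpn rose by 0.53 ± 0.11 (adjusted p = 0.0244), while Plagl1, a growth-restraining zinc finger gene, went from 406, 396 and 587 to 192, 257 and 225 CPM (log2 change -1.04 ± 0.15, adjusted p = 0.00362), with Klf14 and Cd81 lower too. Magel2 missed the threshold without vehicle 3 (0.0562) and Snrpn without vehicle 1 (0.105), vehicle 3 (0.0872), control 3 (0.0771) or control 2 (0.0662). Plagl1 and Meioc were stable, and Trim28 lost its call without any single library but vehicle 2 (0.0507 to 0.17).

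Lists that respond to injury or to a change in handling were counted next. Of 34 tested p53 targets none was called by edgeR, although 3 stood higher and 3 lower when p was left unadjusted (below 0.05), 1 higher and 2 lower by DESeq2, 1 and 1 by edgeR without a filter on low counts, and 0 by limma-voom. Of 31 integrated stress response genes only Slc7a11 was called (3.23%, against 3.52% of all tested genes), and it was lower. Slc7a11, the cystine importer, had 6.71, 11.1 and 7.47 CPM in control and 2.10, 1.19 and 1.29 in vehicle (log2 change -2.49 ± 0.29, adjusted p = 0.000976, stable), and stood at 1.42 to 1.64 in AzadC and 10.3 to 18.4 in knockout libraries. In the heat shock list 2 of 21 genes rose, Hsp90ab1 by 0.31 ± 0.06 (adjusted p = 0.0125) and Hspa8 by 0.45 ± 0.11 (adjusted p = 0.0479). The Hsp90ab1 call was lost without vehicle 1 (0.066) and the Hspa8 call without control 2 (0.14), control 3 (0.127), vehicle 1 (0.17) or vehicle 3 (0.175). Of 38 hypoxia and glycolysis genes 4 fell, Car12, P4ha2, Higd1a and Pdk1, of which 1 to 3 were called with a library left out. The circadian list had 1 lower call of 19, Per2, a clock repressor, at 12.8, 14.1 and 14.6 against 6.13, 6.72 and 6.94 CPM (log2 change -1.06 ± 0.16, adjusted p = 0.00505, stable). Of 24 immediate early genes, which can rise within minutes of handling, Dusp1 rose by 0.53 ± 0.11 (adjusted p = 0.0248) and Klf4 and Myc fell by 1.43 ± 0.27 (adjusted p = 0.0141) and 0.52 ± 0.13 (adjusted p = 0.0432). Dusp1 missed the threshold without any single library but control 1 (0.0512 to 0.105), Klf4 without vehicle 3 (0.0506), and Myc without control 1, control 2, vehicle 1 or vehicle 3 (0.098 to 0.156).

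None of 38 tested muscle genes was called by edgeR with the filter on low counts, although all had a positive log2 change, with a median of 1.53; 3 were higher at an unadjusted p below 0.05, DESeq2 called 1 and limma-voom 0. The fit without that filter called 12 muscle genes higher. Their summed level was 236.9, 133.9 and 48.7 CPM in the control libraries and 177.9, 797.8 and 125.8 in the vehicle libraries, so that vehicle 2 stood apart. Adding a muscle score to the fit gave 325 higher and 410 lower genes. Among 29 macrophage and leukocyte genes Csf1r and Lyz2 rose (adjusted p of 0.046 and 0.0278). Csf1r lost its call without control 2, control 3, vehicle 1 or vehicle 3 (0.101 to 0.176) and Lyz2 without control 2, control 3, vehicle 2 or vehicle 3 (0.0723 to 0.1). The summed level of the list was 160.5 to 219.8 CPM in control and 194.7 to 236.9 in vehicle. The neuronal list had 1 higher call, Stmn2, a tubulin regulator of growing axons (log2 change 1.2 ± 0.23, adjusted p = 0.015, 0.0615 without vehicle 1), and 3 lower of 20, among them the neurofilament gene Nefl (11.4, 11.7 and 16.2 against 2.91, 4.72 and 4.32 CPM, log2 change -1.70 ± 0.23, adjusted p = 0.00312, stable). Kit, a receptor of melanoblasts and blood progenitors, rose from 28, 24.1 and 26.4 to 41.0, 40.5 and 40.2 CPM (log2 change 0.63 ± 0.08, adjusted p = 0.00128, stable). Whether the shares of these cells play a part in the calls above was not tested beyond the fit with the muscle score.

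Of 21 FGF and ERK genes 1 rose and 2 fell (Il17rd, Etv5 and Myc), of 32 endothelial genes Icam2 alone fell, and of 16 Schwann, glial and melanocyte genes Kit rose and Pmp22 fell. Kit and Pmp22 were stable, and Il17rd, Etv5, Myc and Icam2 were not. The oxidative stress list had 1 higher and 2 lower calls of 21, the glucocorticoid list 1 higher of 15, the interferon list 1 higher and 1 lower of 46, and the list of loci that vary between mouse strains 1 higher and 2 lower of 33. These are 14.3, 6.67, 4.35 and 9.09% of the members in that order, against 3.52% of all tested genes. The endothelial share was 3.13% and that of the clustered protocadherins 4.17%. Among 48 clustered protocadherins 2 fell, and among 13 mitochondrially encoded transcripts 2 fell, with a median of -0.25 over the list. All 13 had a negative log2 change, and their summed level was 17486 to 19744 CPM in control and 15809 to 16595 in vehicle. This list and the histone and nuclear-retained lists below were drawn up to read RNA quality, whose part in the calls was not tested. In 42 genes of endoplasmic reticulum translocation and coats, grouped after their values were seen, 7 fell, with 2 of 3 KDEL receptors, 3 of 14 keratins lower, and 2 higher and 1 lower of 6 alpha tubulins. None of 13 mural, 13 dental, 7 tongue and pharynx, 16 H2 histocompatibility, 12 histone, 12 nuclear-retained or 4 Y-linked genes was called by edgeR, nor the single tested Hox gene. At an unadjusted p below 0.05 these 8 lists held 2 higher and 2 lower, 1 and 4, 0 and 0, 1 and 2, 1 and 0, 0 and 6, 0 and 0, and 0 and 0 genes in that order. DESeq2 called 1 mural, 1 histocompatibility and 2 nuclear-retained genes lower, and limma-voom called none of the 8 lists' genes. Without a filter on low counts edgeR called 2 mural genes higher and 2 lower, and 2 dental, 1 histocompatibility and 4 nuclear-retained genes lower. Of the 12 nuclear-retained RNAs 10 had a negative log2 change, with summed levels of 3506 to 4014 CPM in control and 2402 to 3323 in vehicle. The summed histone levels overlapped, at 546 to 595 and 508 to 605 CPM.

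Some of the widest differences sat at pseudogenes, copies of coding genes that have lost their function. Of 26 called pseudogenes and predicted Gm loci with a position, 24 had a match in a coding gene. In vehicle 20 of the 24 were lower, beside 357 of all 610 calls. Not every match was near full length: it covered 4.39% of Zfp783, 5.74% of Gm9936 and 63.6% of Gm45351. Gm8730, a processed pseudogene on chromosome 8 (chr8:102864845-102865798, minus strand), had 256, 204 and 193 CPM in control and 1.79, 1.90 and 1.65 in vehicle (log2 change -6.93 ± 0.46, adjusted p = 2.57e-06). Gm15459, on chromosome 5 (chr5:5781615-5783555, minus strand), had 399, 343 and 373 against 16.4, 9.51 and 19.6 CPM (log2 change -4.63 ± 0.20, adjusted p = 1.13e-07). Gm3226, on chromosome 13 (chr13:112593743-112595084, minus strand), had 71.3, 62.2 and 82.3 against 2.29, 2.09 and 2.66 CPM (log2 change -4.94 ± 0.27, adjusted p = 7.58e-07). The AzadC libraries were low too, with 1.26 to 4.12, 9.82 to 13.8 and 1.54 to 2.54 CPM, and the knockout libraries were high, with 82.8 to 254, 566 to 599 and 77.7 to 156. None of the 3 overlapped between vehicle and control, and all 3 were stable.

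These copies are nearly the same as genes of high level: Gm8730 matched the coding sequence of Rplp0, a ribosomal stalk protein, at 98.7% identity, Gm15459 that of Hspa8, a constitutive chaperone, at 99.7%, and Gm3226 that of Tuba1b, an alpha tubulin, at 98.7%. Short reads tell the copies apart only where they cover a mismatch, and RSEM divides the remaining reads by estimate, so that each copy's level is uncertain. A stretch of 60 bases from the Gm8730 and Gm15459 pairs (GENCODE M21 transcripts, GRCm38, sense strand, 5′ to 3′) shows how few letters differ; capitals mark the mismatches.
Gm8730: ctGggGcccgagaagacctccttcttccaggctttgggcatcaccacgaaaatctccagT
Rplp0: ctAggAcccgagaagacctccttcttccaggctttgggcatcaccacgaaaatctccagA
Gm15459: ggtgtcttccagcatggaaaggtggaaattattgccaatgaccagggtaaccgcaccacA
Hspa8: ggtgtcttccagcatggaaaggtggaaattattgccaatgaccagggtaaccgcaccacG

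The coding partners were themselves called in the other direction. Rplp0 had 1252, 1120 and 1100 CPM in control and 1444, 1636 and 1494 in vehicle (log2 change 0.40 ± 0.07, adjusted p = 0.0149, but 0.0503 without control 2 and 0.0521 without vehicle 3), and Tuba1b 1951, 1770 and 1812 against 2668, 2375 and 2459 (log2 change 0.44 ± 0.07, adjusted p = 0.00832). Hspa8 had 2112, 1777 and 1820 against 2744, 2036 and 3001 CPM, which overlap. When a copy and its partner were summed, the log2 ratio of vehicle over control was 0.15 for Gm8730 with Rplp0, 0.20 for Gm15459 with Hspa8 and 0.39 for Gm3226 with Tuba1b. Over the 24 matched loci, the coding partner was called higher for 6, which match 3 coding genes (Rplp0 for 3 loci, Tuba1b for 2 and Hspa8 for 1), and lower for 0. Tuba1c, a further alpha tubulin on chromosome 15, fell from 264, 253 and 241 to 160, 143 and 149 CPM (log2 change -0.75 ± 0.09, adjusted p = 0.000899, stable).

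**Figure D4:**
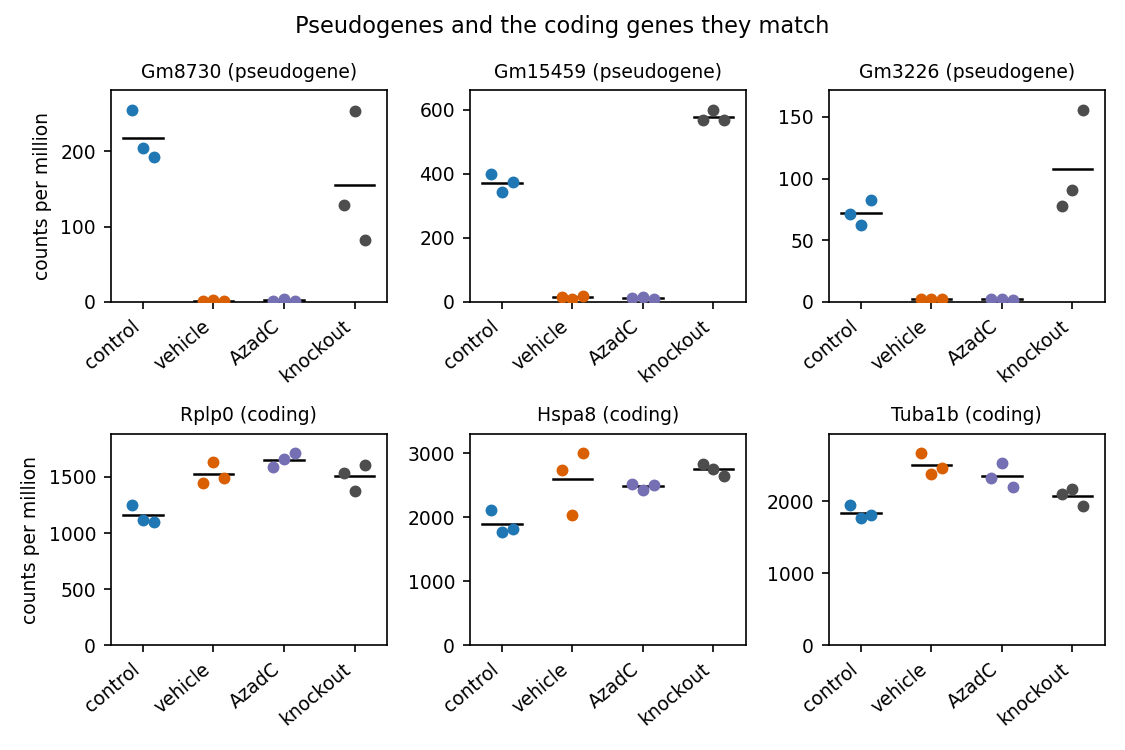
Scaled CPM (linear y axes from 0) of 3 pseudogenes (top row) and of the coding gene each one matches (bottom row) in the 12 libraries, with a bar at each group mean. The pseudogenes are near 0 in vehicle and AzadC and high in control and knockout, while the coding genes are far more abundant in all groups.

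A pair of loci had counts in opposite groups. Gm2436, at 55142109 to 55151007 on chromosome 12, had 151, 89 and 80 counts in the control libraries and 0 in each vehicle library, at least 101-fold higher in control against a floor of 3 counts over the group. Gm2446, at 55217176 to 55226072 on the same chromosome, had 0 counts in each control library and 51, 69 and 112 in vehicle, at least 81.9-fold higher in vehicle. Both are unprocessed pseudogenes that match Ppp2r3c, a phosphatase regulatory subunit, at 99.5% identity. As for the copies above, RSEM divides reads that cover no mismatch by estimate, so the level of each locus is uncertain. Whether transcription or read assignment differed was not tested. Ppp2r3c itself was not called (log2 change 0.19 ± 0.10, adjusted p = 0.317). The 3 knockout libraries had counts for Gm2436 alone (67 to 82), AzadC 1 had 42 for Gm2436 and 0 for Gm2446, and AzadC 2 and 3 had 61 and 129 for Gm2446 and 0 for Gm2436. The Gm2436 call was lost without any single library (adjusted p from 0.053 to 0.107), and the Gm2446 call without any but vehicle 2 (0.0589 to 0.0888). By the rule of at least 10 counts in each library of one group and at most 3 summed over the other, 8 genes were one-sided towards control and 1 towards vehicle. Among the coding ones were Cck, the peptide cholecystokinin, with 73 control counts and 0 in vehicle (at least 23-fold higher in control, a call lost without any single library, at 0.0549 to 0.101), and Ostn, a bone and muscle peptide, with 125 against 2 (ratio 59.0, 95% interval for counting error 16 to 493).

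Some called genes were neighbours. On chromosome 15 Eif3l, an initiation factor subunit, Micall1, an endosomal recycling protein, and Polr2f, a shared RNA polymerase subunit, lie between 79075179 and 79151774. Eif3l had 405, 381 and 407 CPM in control and 216, 226 and 228 in vehicle (log2 change -0.83 ± 0.06, adjusted p = 2.57e-06). Micall1 had 146, 150 and 139 against 69.8, 76.9 and 71.2 CPM (log2 change -0.998 ± 0.06, adjusted p = 1.24e-06), and Polr2f 91.6, 76.0 and 68.1 against 33.5, 42.5 and 37.2 (log2 change -1.06 ± 0.12, adjusted p = 0.000753). All 3 were stable. The next tested gene on one side, Ankrd54, and Sox10 on the other were not called (log2 changes 0.02 ± 0.10 and -0.38 ± 0.46). The predicted gene 1700088E04Rik, antisense to the end of Micall1, had a log2 change of -0.93 ± 0.24 (adjusted p = 0.0522); the strand setting of the counting is not given in the sources used here, so reads of the overlapping pair cannot be told apart. AzadC libraries held 208 to 213 CPM of Eif3l and 67.6 to 74.1 of Micall1, knockout libraries 408 to 446 and 119 to 129. Over the genome, none of 16833 windows of 11 neighbouring tested genes reached 5 calls, and the most was 4, in 10 overlapping or separate windows on chromosomes 4, 6, 14 and 15. The window on chromosome 15 also held the called gene Lgals1, a galectin (log2 change -0.39 ± 0.10, adjusted p = 0.0457). The share of tested genes called was 2.32 to 5.12% on the autosomes, highest on chromosome 6. The share of genes called higher grew from 0.577% in the shortest 3467 genes to 2.83% in the longest 3467, and the share called lower from 1.24 to 3.26%.

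The other 6 libraries share no sample with this comparison, so that AzadC against knockout can be set beside it. Both comparisons come from 1 fit with a shared estimate of the spread, so the 2 lists of calls are not independent. The AzadC and knockout groups differ in drug and in Dnmt1 genotype at once. Of the 17335 genes 748 (4.31%) were higher in AzadC and 1093 (6.31%) lower, 10.6% in all. Among the 253 genes higher in vehicle, 50 (19.8%, or 6.68% of the 748) were also higher in AzadC and 11 (4.35%) were lower. Among the 357 lower in vehicle, 60 (16.8%, or 5.49% of the 1093) were also lower in AzadC and 30 (8.40%) were higher. The opposite-direction shares of 4.35% and 8.40% compare with 6.31% and 4.31% of all tested genes. The 110 genes called in the same direction in both became 37 without vehicle 1, 38 without vehicle 3, 66 without knockout 2 and 73 without control 3 or without knockout 3. In this second comparison Hbb-bh1 changed by 1.60 (adjusted p = 0.00299), Hemgn by 2.31 (0.0053), Rhd by 1.48 (0.00366), Slc7a11 by -3.18 (1.42e-05) and Eif3l by -1.03 (8.54e-08), each the way it went in vehicle. The bone and matrix genes Ibsp, Alpl, Bmp3, Col8a1, Aspn and Ogn were not called there (log2 changes 0.50, -0.23, 0.54, 0.13, -0.10 and 0.16), and Runx2 was higher in AzadC (0.78, adjusted p = 0.00327). Meioc was lower in AzadC (-1.95, adjusted p = 0.00029).

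**Figure D5:**
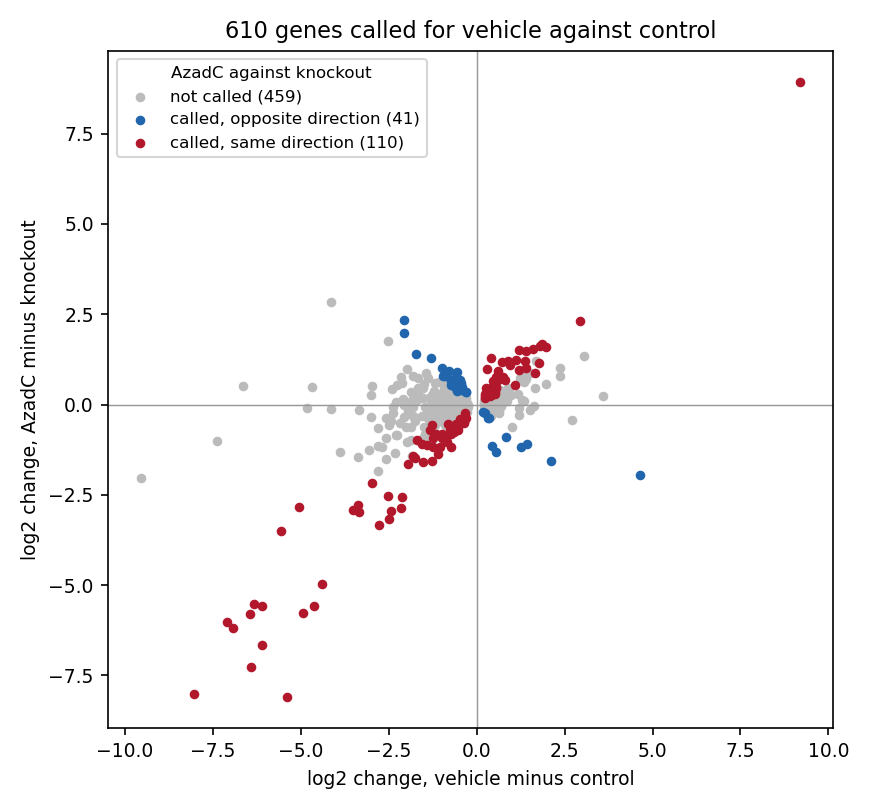
Log2 change of vehicle against control (x axis) and of AzadC against knockout (y axis) for the 610 genes called in the first comparison, with genes called in the second in the same direction in red (110), in the opposite direction in blue (41) and the rest in grey. Estimates of genes with no count in a group depend on the prior count, and most points lie near the horizontal zero line.

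Ordering all 12 libraries sorted the called genes into kinds. Of the 253 higher calls 141 (55.7%) had all 3 control libraries below the other 9, and 180 of the 357 lower calls (50.4%) had them above. That order held for 2.82% and 3.13% of all tested genes. Vehicle together with AzadC lay above control together with knockout for 76 higher calls (30.0%) and below for 79 lower calls (22.1%), against 1.41% and 1.36% of tested genes. Vehicle alone stood above the other 9 in 36 higher calls (14.2%) and below them in 45 lower calls (12.6%), against 0.894% and 0.935%. A gene can satisfy more than one order, and each order uses the vehicle and control libraries that made the calls, so these shares describe the calls. The orders also differ in strictness, as their shares of all tested genes show, so they cannot be ranked by the share of calls. Alpl, at 4.15 to 5.98 CPM in vehicle, 5.57 to 10.6 in AzadC, 9.99 to 10.5 in knockout and 14.6 to 37.0 in control, had control above the rest. Col8a1 did so too, with 50.7 to 72.4 CPM in knockout, 55.6 to 69.8 in AzadC and 34.8 to 49.1 in vehicle. Micall1 and Gm15459 had vehicle and AzadC below control and knockout, and Hbb-bh1 and Hemgn had them above.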

How the data were processed

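RNA of palatal shelves was sequenced from 12 pools, 3 per group. Per the submitters' processing notes, reads passed FastQC and Trim Galore, were aligned with STAR 2.7.0 to mm10 and counted with RSEM 1.3.1, and DESeq2 was named. The deposited tables hold expected counts per gene, and TPM beside them, for 56691 genes, with no sample pooling beyond the pools. Strand was not given in the sources used here. Expected counts were rounded to whole numbers. A total of 17335 genes passed filterByExpr of edgeR 4.0.16 (R 4.3.3) and were tested with its quasi-likelihood test in 1 fit of all 12 libraries, with TMM scaling and Benjamini-Hochberg adjustment. A log2 change is vehicle minus control, with its standard error (SE) from the F statistic, and CPM is scaled by TMM. DESeq2 1.42.0, limma-voom (limma 3.58.1) and other settings were alternatives. The procedure was tested on simulated data. No 2 libraries of the same group were duplicates, and pairs across groups were not checked.

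The deposited TPM values were used for the globin share. Positions come from GENCODE M21 (GRCm38), which held 91.9% of the gene IDs. Called pseudogenes were matched to coding transcripts with blastn 2.17.0. The depth of the 6 libraries, 15997977 to 33113790 counts, limits genes of low level, and intervals cover counting error only.

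The comparison, its gene lists and the named genes were chosen with earlier results of these data known, and 9 gene families and the orders of the 12 libraries were formed after seeing values. Named genes were the 12 highest and 12 lowest log2 changes among called genes above 1 CPM without overlap, the 8 smallest adjusted p in each direction, up to 4 called members per list (or 2 where none was called), the main DNA methylation enzymes, 6 predicted genes, up to 10 one-sided genes and the called genes of the 3 densest windows. Further names, other list members among them, were added after their values were seen. Replicate numbers were not taken as pairs, as same-numbered pools deviated together by correlations of 0.039, 0.106 and 0.136.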

Additional observations from a re-analysis of the deposited data

How the results depend on the processing

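The counts of 253 genes higher and 357 lower depended on the setting. DESeq2 gave 563 and 751, no filter on low counts 487 and 772, a test against a 1.2-fold change 26 and 90, the gene length offset 388 higher, and a fit of only the groups compared 143 higher. With the replicate number as a block the counts were 188 and 310. In that paired check every pool but control 1 and vehicle 1 correlated best with its own number. Leaving out 1 library gave 46 to 205 higher and 85 to 361 lower genes. RLE and upper-quartile scaling, limma-voom, a 1 CPM filter and the muscle and Y-linked covariates stayed within 1.5 times in both directions. Genes called the same way in AzadC against knockout numbered 110, and 229 by DESeq2, 31 against a 1.2-fold change, 264 without a filter, 73 with only the groups compared and 37 to 125 with 1 library left out. Of the 610 calls none that was fitted changed sign under these settings or without 1 of the 6 libraries compared. The 1 CPM filter fitted 595 of them and the fit of only the groups compared 607. The groups did not overlap for 252 of the higher and 352 of the lower calls, so a sign could hardly change. Of the 610, 133 stayed called without vehicle 1 and 132 without vehicle 3. Among named genes that were not called, the log2 change took both signs when 1 library was left out: from -0.614 to 0.105 for Col2a1 and from -0.328 to 0.110 for Sox9 (positive without control 2), from -0.760 to 0.0753 for Ddx3y and from -0.358 to 0.354 for Hoxa2 (positive without control 3), from -1.82 to 0.0699 for Pax1 (positive without control 1), and from -0.688 to 0.422 for Hba-a2 (positive without control 2 and, at 0.0014, without vehicle 1). Hoxa2 was also positive by limma-voom, at 0.0662. The cause was not tested. Most calls of cell division genes were lost without vehicle 1 or vehicle 3, those of Ncapd2 and Bub1b not among them, and low-level genes are limited by depth.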
